A study of Mus musculus with 12 samples.

Results

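The mouse genes Abl1, Abl2, Bcr, Crk, Crkl, Grb2, Gab2, Sos1, Ptpn11 and Cbl were examined in primitive bone marrow (BM) cells with and without BCR::ABL1, the fusion kinase of chronic myeloid leukaemia (CML). They are the endogenous counterparts of the fusion partners and the proteins that a BCR-ABL kinase is known to engage first. The 10 genes were chosen by symbol, each matched to 1 Ensembl identifier, out of 56748 identifiers in the count files, and all 10 were among the 18438 genes with enough counts to be tested. In BCR::ABL1+ cells 8 of the 10 genes were lower than in BCR::ABL1- cells, as were 29% of all genes tested and 46.1% of those at a like level of expression. Crk and Gab2 did not pass the test, and when trends with gene length and GC content were removed from every library the call of Bcr was lost and that of Abl1 depended on how they were removed. In the same counts the ratio of Crk to its paralog Crkl went from about 1.04 to 2.01.

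Bulk RNA-seq was available for 12 libraries of donor CD45.2+ Lin-Sca+Kit+ cells (LSK), a sorted BM fraction rich in haemopoietic stem and multipotent progenitor cells. Donor BM came from SCLtTA/BCR-ABL double transgenic (DTG) mice, in which a tetracycline-repressed transactivator under Scl regulatory sequence drives human BCR::ABL1, and was pooled from several mice of both sexes and frozen. Irradiated B6.SJL recipients (CD45.1, 8 to 12 weeks of age) all received this BM and tetracycline (TET) for 2 weeks after transplant. In the BCR::ABL1- group (labelled CTRL, n = 6) TET was then continued, and in the BCR::ABL1+ group (labelled CML 2wk, n = 6) it was withdrawn for 2 weeks. Every library therefore carried both transgenes. By label the groups differed in TET, in disease state and in sex, with BCR::ABL1- libraries labelled male and BCR::ABL1+ libraries female. The study's methods instead describe recipients of both sexes, and which holds for these libraries is not known. The numbers in the deposited library names form series, of which only that of the sixth libraries held both groups. The effects of BCR::ABL1, of TET itself, of labelled sex and, outside that pair, of the series cannot be told apart. The donor cells shared 1 pool, so p-values measure the spread between recipients and libraries.

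ABL kinases are non-receptor tyrosine kinases that are held inactive by contacts within the protein. Fusion to BCR brings the kinase domains together through the BCR coiled coil, and the activated kinase phosphorylates BCR, which then binds the adaptor GRB2. GRB2 recruits the docking protein GAB2 and the exchange factor SOS1 and so links the kinase to RAS, the phosphatase SHP2 (Ptpn11) and PI3K, while CRKL is the most prominent phosphorylated adaptor in CML cells and CBL is a ubiquitin ligase that binds the same complex. The human transgene was not a counted feature, and reads of human BCR::ABL1 that aligned to mouse Abl1 or Bcr could not be separated from those of the mouse genes in gene-level counts.

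The promoters of the kinase, of the fusion partner and of the Crk and Crkl pair are shown because these genes carry the results that follow. Each line holds the 250 bases before a RefSeq start (GRCm38.p6), 5′ to 3′ along the gene, in lower case. Capitals mark matches on either strand to the GC box (GGGCGG) or to CCAAT, a box common in promoters. Abl1 has 2 starts in the table, and the one farther upstream is shown.
Abl1, chr2:31759689-31759938, forward strand: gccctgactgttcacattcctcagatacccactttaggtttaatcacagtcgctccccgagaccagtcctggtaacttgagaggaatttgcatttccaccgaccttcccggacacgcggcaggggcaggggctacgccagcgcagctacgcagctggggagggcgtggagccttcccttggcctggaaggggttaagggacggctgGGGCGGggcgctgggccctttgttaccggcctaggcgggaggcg
Bcr, chr10:75060646-75060895, forward strand: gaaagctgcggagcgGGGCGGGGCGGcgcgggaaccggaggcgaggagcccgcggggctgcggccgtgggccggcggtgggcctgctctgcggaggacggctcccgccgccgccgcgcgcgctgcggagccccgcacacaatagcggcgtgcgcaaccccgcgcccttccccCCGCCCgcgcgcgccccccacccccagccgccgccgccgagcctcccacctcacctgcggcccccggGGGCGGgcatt
Crk, chr11:75679009-75679258, forward strand: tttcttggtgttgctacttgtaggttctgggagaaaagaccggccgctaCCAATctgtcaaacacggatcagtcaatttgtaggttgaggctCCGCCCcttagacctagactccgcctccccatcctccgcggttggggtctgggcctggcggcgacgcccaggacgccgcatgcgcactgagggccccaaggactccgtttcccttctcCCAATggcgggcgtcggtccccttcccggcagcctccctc
Crkl, chr16:17451735-17451984, forward strand: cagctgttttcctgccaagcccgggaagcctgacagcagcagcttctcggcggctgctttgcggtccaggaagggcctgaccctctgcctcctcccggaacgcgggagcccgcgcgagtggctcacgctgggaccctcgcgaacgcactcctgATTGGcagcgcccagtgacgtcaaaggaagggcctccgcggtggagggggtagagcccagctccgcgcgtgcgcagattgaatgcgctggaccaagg
The Bcr promoter was the richest in GC of the 11 starts of 9 of the genes (82.8% GC, 42 CpG, against medians of 52.4% and 6 CpG over 32851 promoters). The Crkl promoter (67.6% GC) held 1 CCAAT match and no GGGCGG match, while the Crk promoter (62.4% GC) held 2 CCAAT matches and 1 GGGCGG match. GGGCGG was found before 6 of the genes (Abl1, Abl2, Bcr, Crk, Ptpn11 and Cbl) and in 32.7% of all promoters, and CCAAT before Crk, Crkl and Grb2 and in 33.8% of all. The motifs CACGTG (E-box, 6.02% of all promoters) and TTCNNNGAA (STAT-type, 7.02%) were not in any of these windows. These are matches of letters in a window, and no binding was measured.

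The BCR::ABL1- libraries held 22804754 to 41832868 counts and the BCR::ABL1+ libraries 16150817 to 25070105, and each of the 10 genes had between 960 and 15419 counts in every library. Of 8 sorted-cell markers (Kit, Ly6a, Cd34, Flt3, Mecom, Procr, Slamf1 and Hlf) all 8 were detected at 1 CPM (counts scaled by library size) or more in both groups, and Kit lay between 681 and 800.0 CPM without BCR::ABL1, and between 323 and 522 CPM with it. Their summed level lay between 2304 and 2675 CPM without BCR::ABL1, against 1189 to 1639 CPM with it, and 7 of the 8 fell. The other was Ly6a, at 27.2 to 38.3 CPM without BCR::ABL1 and 31.4 to 74.1 CPM with it (log2 fold change 0.38, edgeR adjusted p = 0.0660). Again without and then with BCR::ABL1, markers of mast cells and basophils summed to 76.4 to 166 CPM against 390 to 2273 CPM (6 and 7 of 7 genes detected), those of monocytes and macrophages to 191 to 244 against 423 to 1012 CPM (6 and 7 of 7), erythroid markers to 379 to 548 against 112 to 185 CPM (8 and 6 of 8) and megakaryocyte markers to 276 to 322 against 90.6 to 252 CPM (5 and 4 of 6), and no gene of these lists was at 0 in all libraries. By edgeR 5 mast cell and basophil and 4 monocyte and macrophage genes were higher and 0 lower (30.6% and 29% of all genes). Of the erythroid and megakaryocyte genes 7 and 5 were lower and 0 higher. Prss34 (log2 fold change -1.18), Csf1r (-0.23) and Hbb-bt (1.16) went against their lists without passing. Most of the erythroid sum was Car2 (313 to 426 against 79.4 to 161 CPM) and most of the megakaryocyte sum Itga2b (175 to 213 against 67.7 to 228 CPM). BCR::ABL1+ replicates 2 and 4 stood apart by stromal markers (828.7 and 338 CPM, against at most 85.5 CPM in the other BCR::ABL1+ libraries and 89.3 to 111 CPM in BCR::ABL1-). The share of mitochondrial counts was 0.816 to 1.29% in BCR::ABL1- and 2.26 to 2.97% in BCR::ABL1+ libraries. The part of these differences in the results was not tested, and in bulk RNA fewer cells of a type and less RNA per cell cannot be told apart.

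Of the 10 genes, 8 were lower and 0 higher in BCR::ABL1+ cells in edgeR (quasi-likelihood, p adjusted by Benjamini-Hochberg over every gene tested, threshold 0.05). Over all genes tested, 59.5% passed, 29% lower and 30.6% higher, and among genes with a mean log2 CPM of at least 5, as these genes have, 46.1% were lower. The groups did not overlap for the same 8 genes, against 37.6% of all genes in either direction and 20.6% in the lower direction. The median log2 fold change was -0.68 over the 10 genes and 0.07 over all genes tested. With BCR::ABL1+ replicates 2 and 4 left out together, a choice made after seeing the data, 8 genes were again lower and 0 higher. The numbers in the deposited library names form 3 series, of which only 1, that of the sixth library of each group, held both groups, and a fit with the series as a term, in which the group difference rests on that pair, also called 8 lower and 0 higher.

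**Figure D1:**
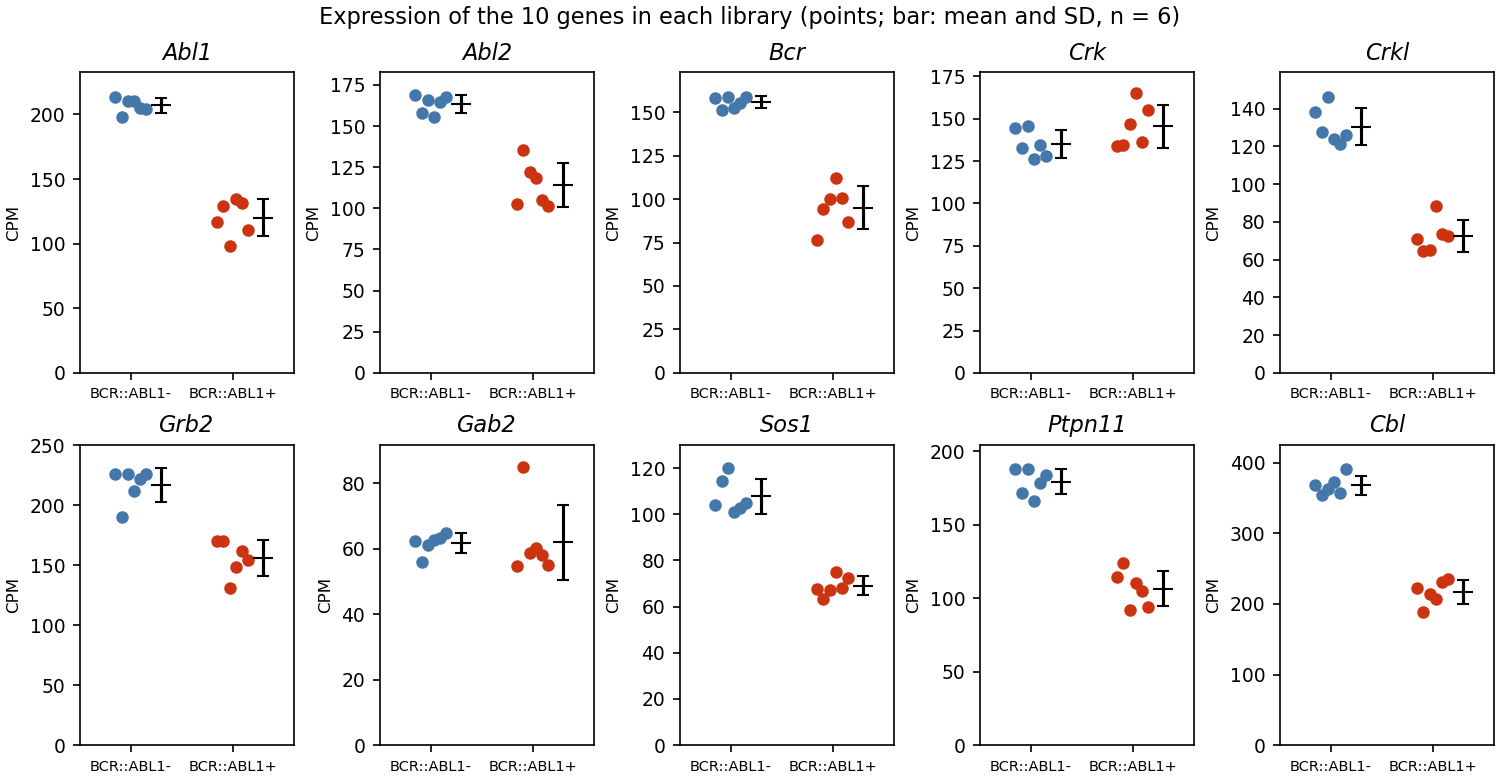
CPM (TMM-scaled) of the 10 genes on a linear axis from 0, with 1 point per library, BCR::ABL1- in blue and BCR::ABL1+ in red, and a black bar for the mean and SD (n = 6 per group). The groups are apart for 8 genes and overlap for Crk and Gab2, where BCR::ABL1+ replicate 2 is the highest point at 84.9 CPM.

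Abl1, the tyrosine kinase whose human counterpart forms the catalytic part of the fusion, lay at 198, 208 and 214 CPM (lowest, median and highest) in BCR::ABL1- and at 98.1, 123 and 135 CPM in BCR::ABL1+ libraries. The groups were well apart, and BCR::ABL1+ cells held 58.1% of the BCR::ABL1- level (log2 fold change -0.78, SE 0.074, adjusted p = 6.11e-07). Abl2, the ABL-related kinase with a similar catalytic domain, lay at 155, 165 and 169 CPM in BCR::ABL1- and at 101, 112 and 135 CPM in BCR::ABL1+ libraries. It fell less than Abl1 and also without overlap (log2 fold change -0.52, SE 0.072, adjusted p = 2.43e-05).

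Bcr, a GTPase regulator whose human counterpart supplies the coiled coil of the fusion, lay at 151, 157 and 159 CPM in BCR::ABL1- libraries, the narrowest spread of the 10 genes there (coefficient of variation 2.10%). In BCR::ABL1+ libraries it lay at 76.2, 97.3 and 112 CPM, without overlap (log2 fold change -0.71, SE 0.077, adjusted p = 2.24e-06). The lower counts of Abl1 and Bcr are those of gene features that could also have taken up reads of the human transgene.

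Among the SH2-SH3 adaptors, which join phosphotyrosines to proline-rich partners, Crkl fell and its close relative Crk did not pass the test. Crkl lay at 121, 127 and 146 CPM in BCR::ABL1- and at 64.4, 71.6 and 88.5 CPM in BCR::ABL1+ libraries, the largest fall of the 10 genes (55.6% of the BCR::ABL1- level, log2 fold change -0.85, SE 0.079, adjusted p = 5.48e-07). Crk lay at 126, 134 and 146 CPM in BCR::ABL1- and at 134, 142 and 165 CPM in BCR::ABL1+ libraries, with overlapping groups (log2 fold change 0.10, 95% interval -0.04 to 0.25, adjusted p = 0.189). It passed as higher with a strict filter on low values (0.24, adjusted p = 0.00381) and with upper-quartile factors (0.18, adjusted p = 0.0251). In those fits the log2 fold changes of all genes moved up by a median of 0.13 and 0.074, in that order. Grb2, the adaptor that binds phosphorylated BCR and carries SOS1, lay at 190, 224 and 227 CPM in BCR::ABL1- and at 131, 158 and 170 CPM in BCR::ABL1+ libraries. It fell to 71.8% of the BCR::ABL1- level (log2 fold change -0.48, SE 0.072, adjusted p = 4.96e-05), without overlap.

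Gab2, the docking protein that carries binding sites for SHP2 and PI3K, lay at 55.8, 62.5 and 64.8 CPM in BCR::ABL1- and at 54.8, 58.5 and 84.9 CPM in BCR::ABL1+ libraries. Its groups overlapped (log2 fold change 0.01, 95% interval -0.20 to 0.21, adjusted p = 0.951). The highest value was that of BCR::ABL1+ replicate 2, with the next at 60.2 CPM, and without that library the log2 fold change was -0.11 (adjusted p = 0.07565).

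Sos1, which loads RAS with GTP, lay at 101, 104 and 120.0 CPM in BCR::ABL1- and at 63.4, 67.9 and 74.9 CPM in BCR::ABL1+ libraries. It fell without overlap (log2 fold change -0.64, SE 0.060, adjusted p = 5.96e-07) and had the narrowest spread of the 10 genes in BCR::ABL1+ libraries (coefficient of variation 5.95%). Ptpn11, which encodes the phosphatase SHP2, a positive relay to RAS and ERK, lay at 166, 181 and 188 CPM in BCR::ABL1- and at 92.2, 108 and 124 CPM in BCR::ABL1+ libraries (log2 fold change -0.75, SE 0.074, adjusted p = 8.98e-07). Cbl, the ubiquitin ligase that marks activated tyrosine kinases for degradation, lay at 355, 366 and 392 CPM in BCR::ABL1- and at 189, 219 and 235 CPM in BCR::ABL1+ libraries (log2 fold change -0.76, SE 0.062, adjusted p = 1.69e-07). Neither gene overlapped between groups, and Cbl had the smallest adjusted p of the 10.

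Levels of different genes were compared per kilobase of summed exon length. In BCR::ABL1- cells Grb2 was highest (74.5 ± 4.89 CPM per kb, SD, n = 6), followed by Cbl (29.8 ± 1.08), Crk (28.6 ± 1.74), Crkl (25.9 ± 1.91) and Ptpn11 (23.9 ± 1.17), then Bcr (19.0 ± 0.399), Abl1 (17.9 ± 0.490), Abl2 (15.1 ± 0.504), Sos1 (10.2 ± 0.713) and Gab2 (9.99 ± 0.501). Neighbours from Cbl to Ptpn11, and Sos1 and Gab2, overlapped within 1 SD. In BCR::ABL1+ cells Grb2 (53.5 ± 5.13 CPM per kb) and Crk (30.8 ± 2.73) stood above Cbl (17.5 ± 1.39), Crkl (14.4 ± 1.73) and Ptpn11 (14.2 ± 1.62). Bcr (11.6 ± 1.51), Abl2 (10.6 ± 1.25), Abl1 (10.4 ± 1.22) and Gab2 (10.04 ± 1.86) then overlapped within their SDs, and Sos1 was lowest (6.51 ± 0.387). The coefficient of variation over libraries ran from 2.10 to 7.37% in BCR::ABL1- and from 5.95 to 18.5% in BCR::ABL1+ cells.

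Fold changes over all genes moved with gene length and GC content, and the 10 genes are long. Their median summed exon length was 7.84 kb, against 3.50 kb over all genes tested, and 9 of 10 were above that median. Of genes up to 2 kb 7.90% were lower in BCR::ABL1+ cells, and of genes above 10 kb, the class of Abl1, Abl2, Sos1 and Cbl, 55.6%. Across genes, which are not independent replicates, the fold change had a Spearman rho of -0.35 with exon length and -0.28 with GC content (17803 genes with a length), and 46.1% of genes above 55% GC, where Abl1 (56.2%) and Bcr (57.7%) lie, were lower. A trend that comes from the libraries and a biological difference that follows length or GC content cannot be told apart here.

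**Figure D2:**
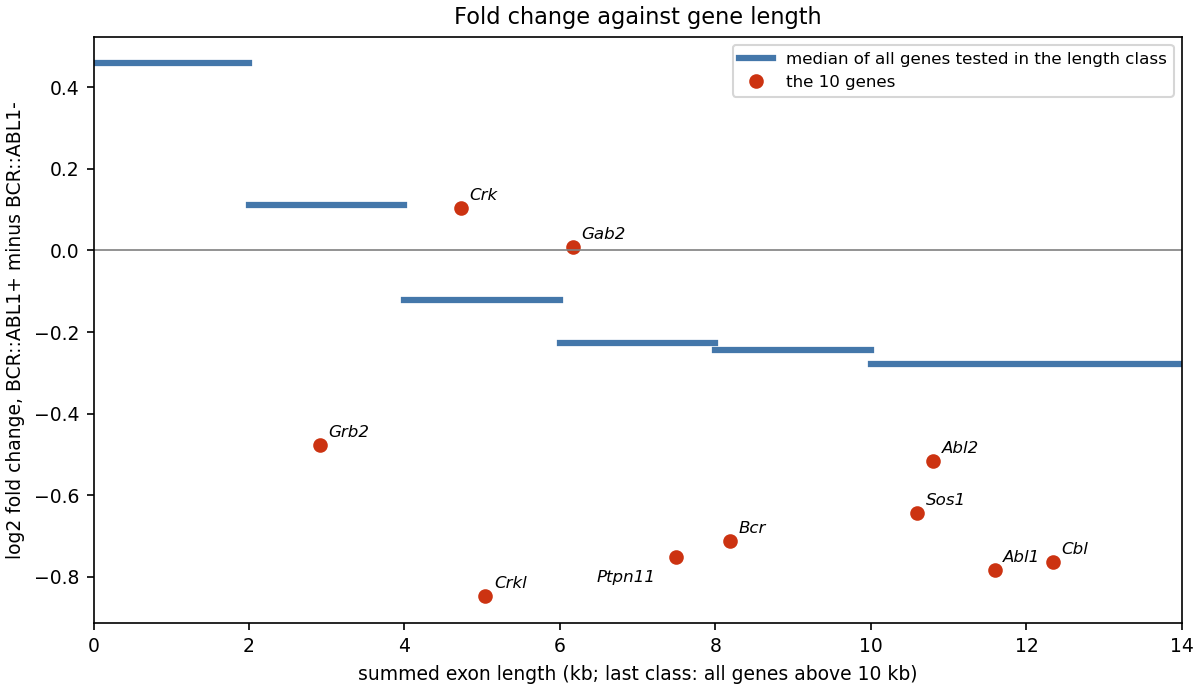
Summed exon length in kb (x axis) against log2 fold change, BCR::ABL1+ minus BCR::ABL1- (y axis), with blue lines for the median of all genes tested in 6 length classes and red points for the 10 genes. The median falls from 0.46 below 2 kb to -0.28 above 10 kb, and 8 of the genes lie below the median of their class while Crk and Gab2 lie above it.

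With the trends of length and GC content removed from each library, a choice made after seeing the data, 6 of the 10 genes were lower and 1 was higher, and the median log2 fold change of the 10 was -0.29 (0.04 over all genes). Over all genes tested 49.6% passed in this fit, 22.9% lower and 26.7% higher. Crkl (log2 fold change -0.69, adjusted p = 3.01e-06), Sos1 (-0.61, adjusted p = 1.26e-06), Grb2 (-0.52, adjusted p = 2.51e-05), Cbl (-0.44, adjusted p = 0.000124), Ptpn11 (-0.36, adjusted p = 0.000174) and Abl2 (-0.21, adjusted p = 0.0135) were lower by edgeR in this fit. The calls of both fusion partners were lost, with Abl1 at -0.10 (adjusted p = 0.108) and Bcr at 0.03 (adjusted p = 0.806). Gab2 was higher (0.30, adjusted p = 0.00557) and Crk did not pass (0.04, adjusted p = 0.630). How the trends were removed decided the call of Abl1: in a single pass, length first and then GC content or the reverse, 7 genes were lower and 1 higher, and Abl1 kept its call both ways (-0.19 and -0.15) while Bcr lost it. With length alone removed, 8 were lower and Crk was higher (0.26, adjusted p = 0.00662).

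**Figure D3:**
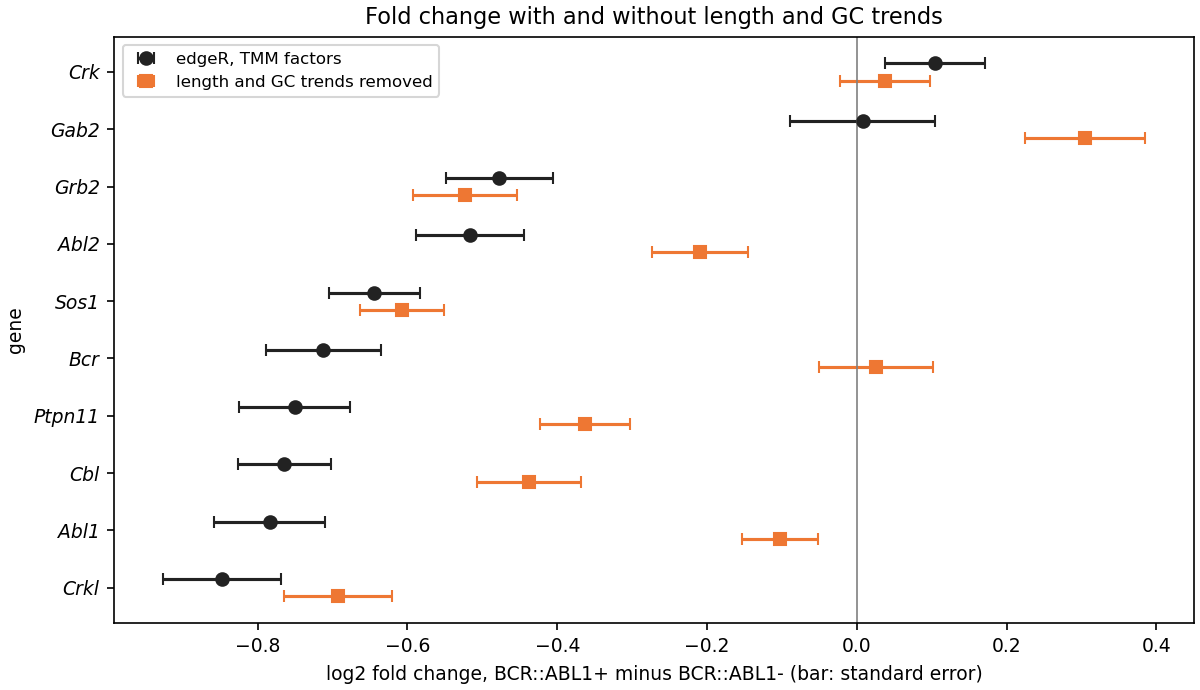
Log2 fold change (x axis, BCR::ABL1+ minus BCR::ABL1-) of each gene (y axis) by edgeR with TMM factors (black circles) and with the length and GC trends removed (orange squares), with bars for the standard error. Bcr moves from -0.71 to 0.03 and Abl1 from -0.78 to -0.10, while Crkl, Sos1, Grb2 and Cbl stay below -0.4.

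The ratio of a gene to its paralog within 1 library does not depend on how libraries are scaled to each other, and 8 such pairs were compared with a two-sided exact permutation test of the group labels (smallest p it allows 0.00216), adjusted over the 8 pairs. Crk and Crkl were counted about equally in BCR::ABL1- libraries, with a Crk to Crkl count ratio of 0.999 to 1.11, and Crk took the larger part in every BCR::ABL1+ library, with a ratio of 1.85 to 2.25. The 2 ranges were far apart (log2 difference 0.95, SE 0.054, exact p = 0.00216, adjusted 0.00289). The genes are alike in exon length (4.73 and 5.04 kb) but differ in GC content (43.8 and 48.4%). Among genes grouped by GC content, the median log2 fold change was 0.31 in the class of Crk and 0.06 in that of Crkl. With both trends removed the log2 difference of the ratio was smaller, at 0.73 (exact p = 0.00216).

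Among the docking proteins, the Gab2 to Gab1 count ratio was 1.90 to 2.94 in BCR::ABL1- and 4.33 to 10.3 in BCR::ABL1+ libraries (log2 difference 1.52, SE 0.19, exact p = 0.00216, adjusted 0.00289). Gab1, the docking protein best known downstream of receptor kinases, fell (22.0 to 29.3 CPM against 7.17 to 13.9 CPM, edgeR adjusted p = 5.53e-07), while Gab2 did not pass the test. With both trends removed this difference was 1.55 (exact p = 0.00216).

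The other pairs moved by less than these on the log2 scale. The ratio of Sos1 to Sos2, a second RAS exchange factor, differed by -0.47 (SE 0.11), that of Ptpn11 to Ptpn6, which encodes the inhibitory phosphatase SHP1, by -0.55 (SE 0.097) and that of Cbl to the ligase Cblb by -0.54 (SE 0.13). In each of these 3 pairs the groups did not overlap (exact p = 0.00216, adjusted 0.00289), and with both trends removed the differences were -0.66, -0.37 and -0.49 (exact p = 0.00216, 0.00216 and 0.00433). The ratio of Grb2 to the haemopoietic adaptor Grap2 rose by 0.82 with overlapping groups (SE 0.18, exact p = 0.00433, adjusted 0.00495), and by 0.47 with both trends removed (exact p = 0.0455, adjusted 0.0606). Grap, another relative of Grb2 that was not among the pairs, did not pass the test at a low level (2.44 to 3.96 CPM against 1.54 to 5.77 CPM, log2 fold change 0.40, edgeR adjusted p = 0.228), in the opposite direction to Grap2.

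The pairs of the fusion partners depended on the trends. The Abl1 to Abl2 ratio was 1.22 to 1.35 in BCR::ABL1- and 0.805 to 1.26 in BCR::ABL1+ libraries, with overlap (log2 difference -0.27, SE 0.096, exact p = 0.00866, adjusted 0.00866), and with both trends removed it changed sign (0.11, exact p = 0.247). The ratio of Bcr to its relative Abr was 0.923 to 1.07 against 0.583 to 0.909 (log2 difference -0.38, SE 0.11, exact p = 0.00216, adjusted 0.00289), and -0.20 with both trends removed (exact p = 0.117).

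**Figure D4:**
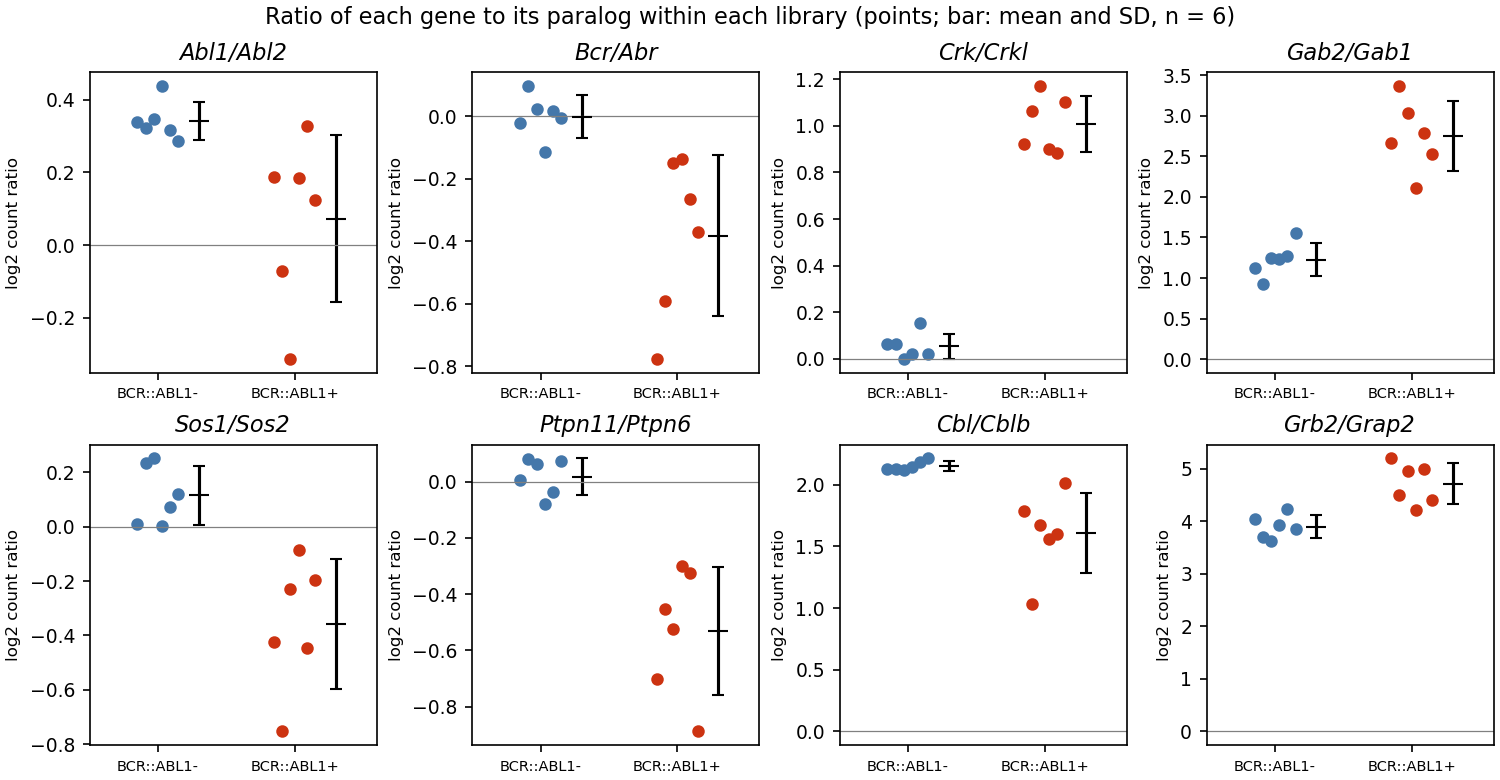
Log2 ratio of counts of each gene to its paralog, 1 point per library, for 8 pairs, with BCR::ABL1- in blue, BCR::ABL1+ in red and a black bar for the mean and SD (n = 6 per group). Crk/Crkl goes from 0.05 to 1.01 with no overlap, and groups overlap for Abl1/Abl2 and Grb2/Grap2.

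Other genes of the pathway were read from a list of 47 that did not include the 10, of which 45 could be tested. In BCR::ABL1+ cells 25 were lower and 4 higher (Nck1, Hras, Abi3 and Ubash3a), with a median log2 fold change of -0.34. The share called, 64.4%, was near the 59.5% of all genes tested, of which 29% were lower and 30.6% higher. With both trends removed 15 were lower and 7 higher, with a median of -0.07, a share of 33.3% lower and 15.6% higher against 22.9% and 26.7% of all genes. The groups within the list are small, and their counts are descriptions to be read against these shares. Cblc and Bcar1 had too few counts to be tested.

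PI3K, phospholipase and lipid phosphatase genes were lower in 7 of 8, and in 4 of 8 with both trends removed. Inpp5d, which encodes the lipid phosphatase SHIP1, fell from 302 to 333 CPM to 166 to 210 CPM (log2 fold change -0.80, adjusted p = 1.37e-07), Pik3cd, a leukocyte catalytic subunit of PI3K, by 0.52 (adjusted p = 5.78e-06) and Pik3r1, a regulatory subunit, by 0.51 (adjusted p = 6.73e-06). With both trends removed Inpp5d (-0.28, adjusted p = 0.000382) and Pik3r1 (-0.32, adjusted p = 0.000162) were still lower and Pik3cd was not (0.09, adjusted p = 0.279).

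RAS proteins, their regulators and related exchange factors were lower in 6 of 9 and higher in 1, and with both trends removed lower in 3 and higher in 2. Rapgef1, the RAP exchange factor that binds CRK proteins, fell by 0.79 on the log2 scale (adjusted p = 1.92e-06), Vav2, an exchange factor of the VAV family, by 0.81 (adjusted p = 6.38e-06) and Nf1, which switches RAS off, by 0.41 (adjusted p = 7.62e-06). None of these 3 passed with both trends removed (adjusted p = 0.0529, 0.232 and 0.314).

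Other adaptor and docking genes were lower in 5 of the 11 tested and higher in 1. The share called, 54.5%, was below that of all genes, while the share lower, 45.5%, was above the 29% of all genes. With both trends removed 2 were lower (18.2%, against 22.9% of all genes) and 0 higher. Pxn, a focal adhesion adaptor that CRK proteins bind, fell by 0.80 (adjusted p = 2.04e-07) and Sh2b3, which encodes the inhibitory adaptor LNK, by 0.68 (adjusted p = 5.09e-06), and neither passed with both trends removed (adjusted p = 0.277 and 0.0538). Of the ABL binding proteins and regulators 1 of 6 was lower and 1 higher, a share called of 33.3%, which is also below that of all genes, and with both trends removed 2 were lower and 3 higher. Abi2, an ABL interactor, fell by 0.53 (adjusted p = 3.32e-06) and by 0.35 with both trends removed (adjusted p = 5.82e-05). Of only 3 negative regulators 2 were lower and 1 higher, and 1 and 1 with both trends removed, with Ptpn1, a phosphatase that acts on BCR-ABL in cells, at -0.50 (adjusted p = 2.32e-06) and at -0.04 with both trends removed (adjusted p = 0.702).

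Of the 8 paralogs tested 4 were lower and 0 higher. The share called was 50%, against 59.5% of all genes, and the share lower was 50%, against 29%. With both trends removed 3 were lower and 1 higher. Beside Gab1 the 4 lower genes were Abr (log2 fold change -0.34, adjusted p = 0.000555), Gab3 (-1.34, adjusted p = 0.000158) and Grap2 (-1.27, adjusted p = 2.00e-05). The call of Grap2 was lost with the library number series as a term (-1.10, adjusted p = 0.0880). Abr went the other way with both trends removed (0.21, adjusted p = 0.00352). Sos2 (-0.16, adjusted p = 0.0619), Ptpn6 (-0.19, adjusted p = 0.0780) and Cblb (-0.21, adjusted p = 0.0565) missed the threshold by edgeR. Each passed without BCR::ABL1+ replicate 2 (-0.23, -0.23 and -0.31 in that order) and without a filter on low counts (-0.24, -0.26 and -0.28). Without that filter the log2 fold changes of all genes moved by a median of -0.073. Ptpn6 also passed without replicate 1 (-0.25) or 6 (-0.24) and with length removed (-0.26). Sos2 and Cblb also passed with GC content removed (-0.28 and -0.27) and without BCR::ABL1+ replicates 2 and 4 (-0.21 and -0.32). With length removed Sos2 passed as higher (0.16, edgeR adjusted p = 0.0387).

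Genes that deviated with a gene from library to library were found from log2 CPM centred on the group means, over 12 libraries and 10158 genes, as a description. The highest Pearson r with Abl1 were those of Cdc25b (0.968), Dyrk2 (0.965) and Prkacb (0.962), with Bcr those of Hif1an (0.965), Elmo3 (0.924) and Tmem140 (0.923), and with Crkl those of Rad9a (0.915), Ccnf (0.913) and Map3k1 (0.904). The libraries share donor pool and processing, and these are the highest of many values.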

How the data were processed

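RNA of sorted donor LSK cells from 6 BCR::ABL1- and 6 BCR::ABL1+ recipients was measured by bulk RNA-seq (Kapa RNA HyperPrep). The authors deposited raw counts per Ensembl gene, without normalization. The submitters' processing notes name fastp 0.23.2, STAR 2.7.10a, featureCounts 2.0.1 and the builds mm39 and GRCm39, whereas the study's methods name Trim Galore!, HISAT2 and a human build for bulk RNA-seq. Annotation, use of strand and handling of reads with several matches are not given in the sources used here, so counts of close paralogs are uncertain. Symbols were matched for 52073 of 56748 identifiers. The reference used here was GRCm38, so no coordinates are given for counted genes, promoters carry those of GRCm38.p6, and exon lengths and GC content from that build are approximate.

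Groups came from the sample labels. Genes kept by filterByExpr (18438) were tested with edgeR 4.0.16 in R 4.3.3 (quasi-likelihood test, TMM factors, Benjamini-Hochberg adjustment, threshold 0.05), with DESeq2 1.42.0 as an alternative. CPM used TMM-scaled library sizes. Paralog ratios were log2 of counts plus 0.5 and were tested in Python 3.11.15 with scipy 1.17.1. Trends were removed as an offset, the median deviation in 50 bins of length and of GC content, in 5 alternating rounds. The rounds replaced a single pass after the result of the single pass had been seen, and both are given. The 10 genes and the lists were chosen with earlier results of these data known. Beyond the 10 genes, the text names the paralogs in the 8 ratio pairs, the 10 pathway genes with the smallest adjusted p whose groups do not overlap, and the 3 genes most like Abl1, Bcr and the gene with the largest change. Gab3, Grap, Cblc, Bcar1, Nck1, Hras, Abi3 and Ubash3a were named after their values were seen. The tests were checked on simulated data: for this comparison edgeR called 60 of 111 genes changed by 0.7 on the log2 scale and 52 of 87 changed by 1, each with the right sign, and it called 6 of 17968 genes left unchanged. In these simulated counts far fewer genes were changed than were called in the data, and no length or GC trend was present. The rates of the simulation therefore do not carry over to the data. No pair of libraries agreed within sampling noise (lowest chi-square per degree of freedom 3.78). Of the marker lists, 1 gene is not reported here.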

Additional observations from a re-analysis of the deposited data

Results flagged for a closer look

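In 60 groups of 6 libraries examined, 6 held a library set far from the other 5, where chance gives about 1 in 20 groups, or 3. Of these, 5 were BCR::ABL1+ replicate 2. It was the highest of its group for Gab2 (84.9 CPM, next 60.2 CPM), for megakaryocyte markers (252 CPM summed, next 134), for mast cell and basophil markers (2273 CPM, next 958) and for stromal markers (828.7 CPM, next 338), and it had the fewest genes with counts (22965, next 24870). Only 2 of the 6 megakaryocyte genes were highest in this library, against 6 of 7 mast cell and basophil and 7 of 8 stromal genes. Most of its megakaryocyte sum was Itga2b, which reached 228 CPM in BCR::ABL1+ libraries, where Vwf reached 15.9 and Pf4 7.65 CPM. BCR::ABL1- replicate 4 was the highest of its group for neutrophil markers (4245 CPM summed, next 2530 CPM).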

How the results depend on the processing

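Across 27 alternatives, Abl2, Crkl, Grb2, Sos1, Ptpn11 and Cbl kept a lower level past the threshold in each, with largest adjusted p between 0.00190 and 0.0465. The trend settings, the rounds among them, and leaving out BCR::ABL1+ replicates 2 and 4 were chosen after seeing the data. Of the 10 genes, 1 was higher in some settings, but not the same one. It was Crk with upper-quartile factors, with a strict filter (10 CPM in 6 libraries) and with length removed. It was Gab2 with length and GC content removed in rounds, in a single pass in either order or with the replicate block. Genes called numbered 10976, but 7307 with the strict filter, which tests fewer genes and moves the median of all genes by 0.13 on the log2 scale, and 4644 with the library number series as a term. Pathway genes called higher numbered 4, but 9 with length removed, 8 with GC content removed, 7 with both removed in rounds, 8 with both and the replicate block, 9 and 7 in a single pass with length or GC content first, and 2 with the library series. Those lower numbered 25, but 15 with both removed in rounds, with or without the replicate block.

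Signs changed as follows, and the cause was not tested. Without a filter on low counts the log2 fold changes of all genes moved by a median of -0.073. Bcr was at 0.026 with both trends removed in rounds, at 0.016 with the replicate block added and at 0.0042 with GC content first. Crk was at -0.0073 with GC content removed. Gab2 was at -0.068 without a filter, -0.0095 with the replicate block, -0.24 with the library series and -0.13 without BCR::ABL1+ replicates 2 and 4, and ranged from -0.11 (without BCR::ABL1+ replicate 2) to 0.038 when 1 library was left out, with -0.024 without BCR::ABL1- replicate 2. With both trends removed in rounds, with the replicate block added, and in a single pass with length or GC content first, Abr was at 0.21, 0.21, 0.13 and 0.17, Sos2 at 0.058, 0.051, 0.0050 and 0.072 and Pik3cd at 0.094, 0.089, 0.057 and 0.045. Sos2 was at 0.16 and Cblb at 0.059 with length removed, and Cblb at 0.054 with both, 0.043 with the replicate block and 0.035 with GC content first. Ptpn6 was at 0.091 with GC content removed, 0.012 with both and 0.045 with length first. The Abl1/Abl2 ratio was at 0.11 with both removed. Bcr/Abr and Grb2/Grap2 kept their sign with both removed but no longer passed. They were at -0.20 (adjusted p = 0.134, exact permutation) and 0.47 (adjusted p = 0.0606, exact permutation).

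Same-numbered libraries did not deviate together (r from -0.125 to 0.0679 over genes), so the numbers name libraries only. With the replicate block 9975 genes and the same number of the 10 genes (8 lower, 0 higher) were called, and Abl1/Abl2 (-0.27) had an adjusted p of 0.0625 in an exact sign-flip test, whose smallest p is 0.0312. No other call of the 10 genes or the 8 ratios changed with the block alone.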
